A study of Mus musculus with 6 samples.

Results

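Of the 34745 genes in the deposited table, 10 that are used as markers of endothelial cells, the lining of blood vessels, were followed in sorted cardiac macrophages: Flt1, Kdr, Nrp1, Eng, Tek, Pecam1, Cdh5, Vwf, Emcn and Egfl7. They were picked out by gene name, with the Lgmn KO and WT levels of Flt1 and of endothelial marker lists in the same libraries already known. The comparison of Lgmn KO with WT therefore had a part in choosing them, and their differences are given as descriptions without a test. The study compared cardiac macrophages of mice lacking legumain (Lgmn KO), a protease of the lysosome, with those of wild-type mice (WT), all C57BL/6, 8 weeks old and, per the series design, after myocardial infarction. Each genotype had 3 libraries, Lgmn KO replicates 1, 2 and 4 and WT replicates 1, 2 and 3. The labels mention both coronary ligation and sham surgery without assigning either to an animal. They do not give the knockout allele, or whether a library came from a single animal, so errors measure the spread between libraries only. Cells from the heart carried stains against CD64, CD11b and CD45, which mark macrophages, myeloid cells and leukocytes. The gate itself is not described.

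Endothelial cells sense vascular endothelial growth factors (VEGF) through the receptor kinases Kdr (VEGFR2), the main signalling receptor, and Flt1 (VEGFR1), which binds VEGF-A tightly and signals weakly, with Nrp1 as a coreceptor. Tek (Tie2) is the receptor of the angiopoietins, and Eng (endoglin) is a coreceptor for ligands of the TGF-beta and BMP family. Several of these proteins are not limited to vessels: Flt1 is also found on monocytes and macrophages, where it takes part in their migration toward VEGF-A and placental growth factor, Nrp1 and Eng occur on macrophages, and Pecam1 on many leukocytes. Cdh5 and Emcn are held to be much more restricted to endothelium, and Vwf to endothelium and megakaryocytes.

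Flt1, Eng, Nrp1 and Pecam1 were lower in every Lgmn KO library while Kdr was not. No promoter was matched for Pecam1, and that of Nrp1 is described below without its sequence. The promoters of the related receptors Flt1 and Kdr and of Eng are shown, chosen with these levels known. Each is the 250 bases before the RefSeq start site (GRCm38.p6), read 5′ to 3′ on the strand of the gene, at chr5:147726012-147726261 on the minus strand for Flt1, chr5:75978456-75978705 on the minus strand for Kdr and chr2:32646345-32646594 on the plus strand for Eng. Capitals mark matches to an ETS-type motif, GGAAGT or its complement ACTTCC, and to the cyclic AMP response element TGACGTCA.
Flt1: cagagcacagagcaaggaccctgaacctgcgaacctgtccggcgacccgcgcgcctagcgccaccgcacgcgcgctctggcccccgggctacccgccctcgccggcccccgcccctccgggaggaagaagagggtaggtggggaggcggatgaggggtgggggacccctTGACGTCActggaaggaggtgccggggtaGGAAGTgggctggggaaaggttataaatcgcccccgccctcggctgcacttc
Kdr: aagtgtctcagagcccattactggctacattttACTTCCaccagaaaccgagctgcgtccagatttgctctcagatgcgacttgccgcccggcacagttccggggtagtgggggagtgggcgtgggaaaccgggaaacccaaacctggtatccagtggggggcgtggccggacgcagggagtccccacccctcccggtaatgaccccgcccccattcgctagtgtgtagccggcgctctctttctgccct
Eng: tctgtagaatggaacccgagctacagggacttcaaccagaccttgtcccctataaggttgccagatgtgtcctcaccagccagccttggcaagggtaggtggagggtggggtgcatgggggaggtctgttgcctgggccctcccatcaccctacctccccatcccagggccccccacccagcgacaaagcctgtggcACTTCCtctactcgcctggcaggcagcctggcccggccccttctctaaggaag

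The Flt1 window held TGACGTCA starting 81 bases before the start site, GGAAGT 52 bases before it and TATAAA 31 bases before it. Neither TGACGTCA nor TATAAA was found in the Kdr or Eng window. The ETS-type letters stood 217 bases before the start of Kdr and 53 before that of Eng, both as the complement. Among 32851 RefSeq promoter windows of the same length, 1.55% held TGACGTCA, 19.7% the ETS-type letters and 12.4% TATAAA, on either strand. The other motifs searched were ACGTG, found in 16.6% of all windows, AGATAA, found in 9.99%, and CACCC, found in 52.0%. ACGTG and AGATAA were found in none of these 3 windows and CACCC in all of them, and no 2 matches of different motifs overlapped. The Flt1 window was 70.4% G and C, against a median of 52.4% over all windows. The window of Nrp1 held CACCC but none of the other motifs, the ETS-type letters included. A match describes letters and does not show a bound site.

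Depth was even, from 19546253 to 24086976 counts per library, so that 0 counts in a library still allow a level of 0.125 to 0.153 CPM, the count scaled to a common library size after TMM normalization. These limits stand for 3 counts and cover counting error only. Lgmn was at 78.7 to 88.5 CPM in Lgmn KO libraries and at 2205 to 2692 CPM in WT libraries. The defining markers of the labelled cell type were present in every library. The gene of the stained protein CD64, Fcgr1, was at 95.8 ± 24.2 CPM in Lgmn KO libraries and 203 ± 99.7 CPM in WT. That of CD11b, Itgam, was at 711 ± 28.6 CPM in Lgmn KO libraries and 915 ± 181 CPM in WT. Ptprc, the gene of CD45, was at 424 ± 31.5 CPM in Lgmn KO libraries and 422 ± 80.1 CPM in WT (n = 3 each, SD). For each of these genes the genotypes overlapped. All 10 macrophage markers were tested, 7 with negative and 3 with positive log2 fold changes. Among them Cd68, a lysosomal protein of macrophages, was at 3597 ± 280 CPM in Lgmn KO libraries and 3171 ± 102 CPM in WT, and Csf1r, the macrophage growth factor receptor, at 550 ± 61.8 CPM in Lgmn KO libraries and 922 ± 218 CPM in WT libraries (n = 3 each, SD). Of the 10 endothelial genes, 6 passed the filter on low counts, 2 had a few counts below it (Cdh5 and Egfl7) and 2 had none in any library (Tek and Emcn). In the edgeR quasi-likelihood fit across 12546 genes, 1 of the 6 passed an adjusted p of 0.05 (Flt1), where 0.789% of all tested genes did in either direction and 0.478% with lower levels in Lgmn KO. By DESeq2 3 passed (Flt1, Pecam1 and Eng), where 6.41% of all genes did. Without Lgmn KO replicate 2, or without replicate 4, none of the 6 passed by edgeR, and without WT replicate 1 the same 3 as by DESeq2 did. Nothing is read from these counts, since the contrast was known when the genes were chosen. Lgmn KO levels lay wholly below WT levels for 4 of the 6 (Flt1, Pecam1, Eng and Nrp1), as for 13% of all tested genes, and for none of the 6 wholly above, as for 10.7% of all tested genes. Pecam1 passed the filter only through the WT libraries, so that its groups could not overlap. Nothing is read from this count either. In bulk libraries, fewer cells of a type and less RNA per cell cannot be told apart.

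**Figure D1:**
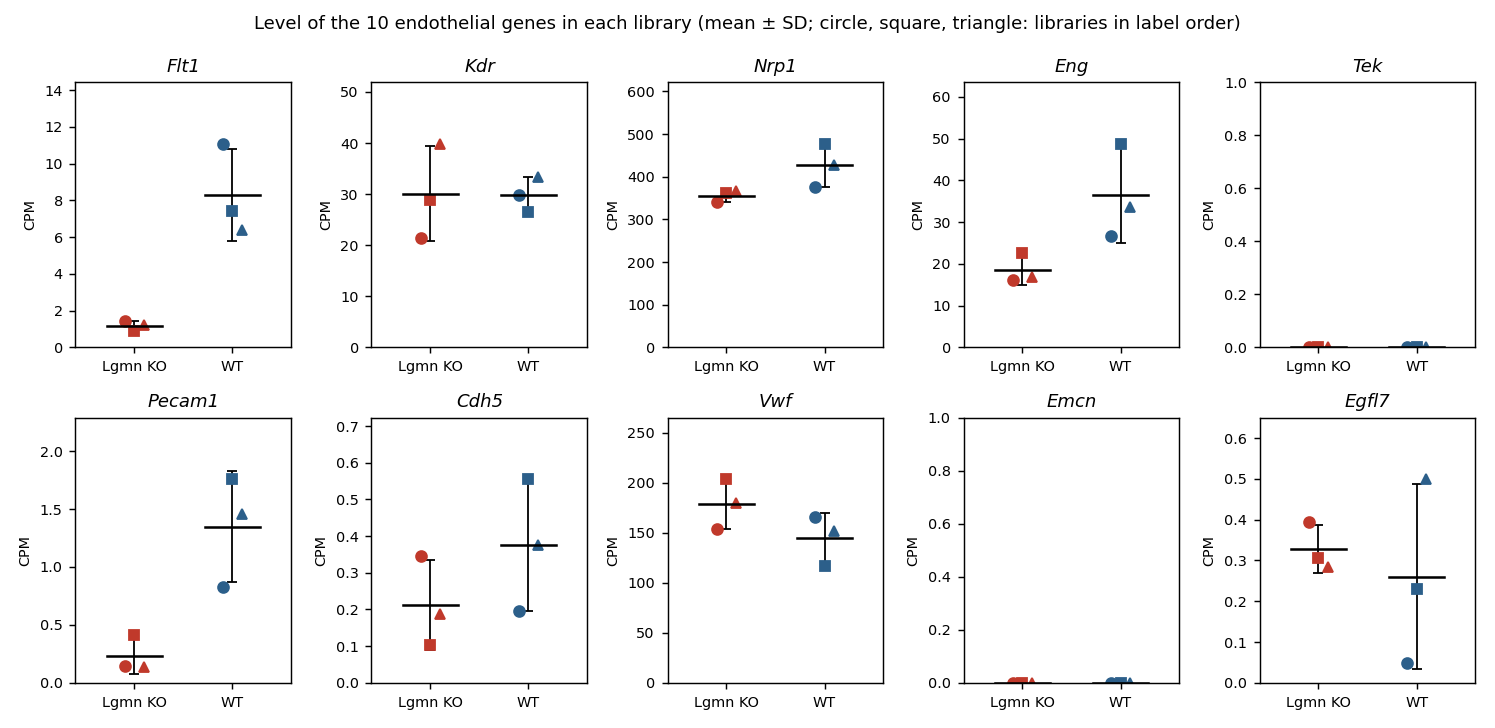
CPM (y axis, from 0) of the 10 genes in the 3 Lgmn KO (red, left) and 3 WT (blue, right) libraries, with the mean as a line and the SD as a bar. Flt1 was at 0.920 to 1.43 CPM in Lgmn KO libraries and 6.38 to 11.1 CPM in WT, Kdr and Vwf overlapped between genotypes, and Tek and Emcn were at 0 throughout.

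Flt1 had the largest difference of the 10 genes with a fitted value. Its counts were 29, 18 and 26 in Lgmn KO replicates 1, 2 and 4, against 229, 160 and 153 in WT replicates 1, 2 and 3. The levels were 1.43, 0.920 and 1.23 CPM in Lgmn KO libraries and 11.1, 7.41 and 6.38 CPM in WT. The 2 groups were far apart, with the lowest WT library 4.46 times above the highest Lgmn KO library, and WT replicate 1 was the highest of all. Means were 1.19 ± 0.257 CPM in Lgmn KO libraries and 8.31 ± 2.51 CPM in WT libraries (n = 3 each, SD), a log2 fold change (Lgmn KO over WT) of -2.79, standard error 0.29, so that Lgmn KO held 0.144 of the WT level. In the authors' deposited table the log2 fold change of Flt1 is -2.82. Flt1 (ENSMUSG00000029648) is encoded on the minus strand of chromosome 5, from 147561604 to 147726011 (GRCm38, as the table has it), and no exon of another gene in GENCODE M21 overlaps its exons. The counts are per gene, so the full receptor and the soluble form of Flt1, which lacks the kinase part, were not separated.

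Kdr, the other main VEGF receptor, overlapped between the genotypes. It had 21.5, 28.9 and 39.9 CPM in Lgmn KO replicates 1, 2 and 4 and 29.8, 26.5 and 33.3 CPM in WT replicates 1, 2 and 3. Lgmn KO libraries spread on both sides of the WT libraries, with Lgmn KO replicate 1 the lowest and replicate 4 the highest of all 6. The fitted log2 difference was 0.01, with 0.21 as its standard error. It was -0.25 without Lgmn KO replicate 4 and 0.21 without Lgmn KO replicate 1. Per gene length, the ratio of Flt1 to Kdr within a library was 0.0206 to 0.0446 in Lgmn KO libraries and 0.128 to 0.251 in WT. Flt1 was thus the rarer receptor transcript in every library. Kdr (ENSMUSG00000062960) lies on the same chromosome, from 75932827 to 75978458.

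**Figure D2:**
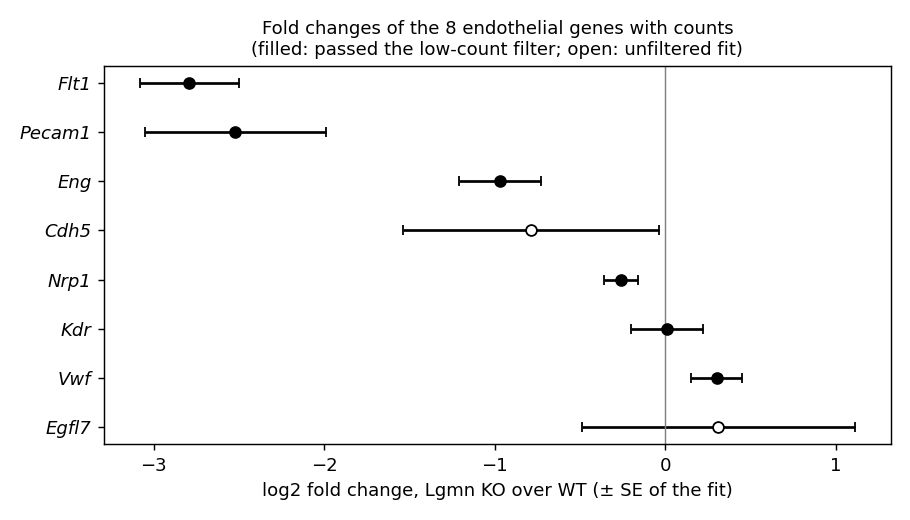
Fitted log2 fold change, Lgmn KO over WT, (x axis) with its standard error for the 8 genes with counts; open symbols are genes under the low-count filter, from a fit without it. Values run from -2.79 for Flt1 to 0.31 for Egfl7.

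Nrp1 (ENSMUSG00000025810, chromosome 8 from 128359073 to 128505462), the coreceptor of VEGF and of class 3 semaphorins, was the most abundant of the 10 genes. Its level was 340, 362 and 366 CPM in Lgmn KO libraries and 376, 478 and 427 CPM in WT. The groups did not overlap, but the lowest WT library was only 1.03 times above the highest Lgmn KO library. The fitted log2 fold change was -0.26 (standard error 0.10). Deposited FPKM of Nrp1 averaged 60.0 in Lgmn KO libraries and 72.5 in WT, with 613 genes above it in Lgmn KO libraries and 518 in WT among the 18457 genes with a count.

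Eng (ENSMUSG00000026814, chromosome 2 from 32646595 to 32682669) was also lower in each Lgmn KO library. It had 16.1, 22.7 and 16.8 CPM in Lgmn KO replicates 1, 2 and 4 and 26.6, 48.8 and 33.7 CPM in WT replicates 1, 2 and 3. WT replicate 2 was the highest, and WT replicate 1 was 1.17 times above the highest Lgmn KO library. The fitted log2 fold change was -0.97 (standard error 0.24), and -0.70 without WT replicate 2. Means were 18.5 ± 3.62 CPM in Lgmn KO libraries and 36.3 ± 11.4 CPM in WT libraries (n = 3 each, SD). Exons of Fpgs on the opposite strand cover 1.51% of the exon bases of Eng, and whether reads were counted by strand is not given. Fpgs had 225 to 289 counts in Lgmn KO libraries and 267 to 300 in WT libraries.

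The angiopoietin receptor Tek (ENSMUSG00000006386, chromosome 4 from 94739289 to 94874976) had 0 counts in all 6 libraries, which allows up to 0.153 CPM per library. The closely related receptor Tie1 had 6, 8 and 6 counts in Lgmn KO libraries and 0, 1 and 3 in WT, under the filter.

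The junction genes were near the lower limit of detection. Pecam1, the adhesion molecule CD31 (ENSMUSG00000020717, chromosome 11 from 106654217 to 106750628), had 3, 8 and 3 counts in Lgmn KO replicates 1, 2 and 4, against 17, 38 and 35 in WT replicates 1, 2 and 3. All Lgmn KO libraries were below all WT libraries, by a factor of 2.02 between the nearest. Levels were 0.233 ± 0.153 CPM in Lgmn KO libraries and 1.35 ± 0.476 CPM in WT libraries (n = 3 each, SD). The fitted log2 fold change was -2.52 (standard error 0.53), and -3.17 without Lgmn KO replicate 2. Pecam1 passed the filter only through the WT libraries. Cdh5, the VE-cadherin of endothelial junctions (ENSMUSG00000031871, chromosome 8 from 104101625 to 104144502), had 7, 2 and 4 counts in Lgmn KO libraries and 4, 12 and 9 in WT. The genotypes overlapped, and the unfiltered log2 fold change of -0.79 had a standard error of 0.75.

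Among the secreted and surface products Vwf stood apart by its level. This clotting factor (ENSMUSG00000001930, chromosome 6 from 125546774 to 125686679), stored by endothelial cells and platelets, had 3124, 3992 and 3812 counts in Lgmn KO libraries and 3416, 2528 and 3653 in WT. That was 154, 204 and 180 CPM in Lgmn KO replicates 1, 2 and 4 and 166, 117 and 152 CPM in WT replicates 1, 2 and 3. The groups overlapped, with a log2 fold change of 0.30 (standard error 0.15), and 0.17 without WT replicate 2. Emcn, a sialomucin of endothelial cells (ENSMUSG00000054690, chromosome 3 from 137341067 to 137432185), had 0 counts in every library. Egfl7, a secreted factor of endothelial cells whose gene hosts miR-126, had 8, 6 and 6 counts in Lgmn KO libraries and 1, 5 and 12 in WT, and the groups overlapped, WT replicate 1 being the lowest and WT replicate 3 the highest. Its unfiltered log2 fold change was 0.31 (standard error 0.80). It (ENSMUSG00000026921) lies on chromosome 2 from 26580014 to 26593120. Exons of Agpat2 on the opposite strand cover 1.79% of the exon bases of Egfl7, and Agpat2 had 596 to 670 counts in Lgmn KO libraries and 623 to 790 in WT libraries, and without counting by strand reads of these 2 genes cannot be told apart there.

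Because Vwf is also made by megakaryocytes, 18 markers of platelets and their precursors were read beside it. Gp1ba, Gp6 and Gp9, which encode platelet receptor subunits, and Gata1, a transcription factor of megakaryocytes, had no count in any library, and 9 of the 18 were tested. Over all tested genes 17.5% had an unadjusted p below 0.05 by edgeR, edgeR called 0.789% and DESeq2 called 6.41%. Each such count of a list stands against these shares. By the edgeR quasi-likelihood test 0 of the 9 were called (2 had an unadjusted p below 0.05, while DESeq2 called 2), with a median log2 fold change of 0.33. The most abundant was Plek, which encodes pleckstrin and is also a gene of leukocytes. Pf4, a chemokine of platelets that macrophages also make, was at 48.6 ± 2.26 CPM in Lgmn KO libraries and 73.6 ± 10.2 CPM in WT libraries (n = 3 each, SD; log2 fold change -0.60, adjusted p = 0.0555, edgeR quasi-likelihood test). The integrin gene Itgb3 was at 95.5 ± 16.4 CPM in Lgmn KO libraries and 54.6 ± 15.7 CPM in WT (log2 fold change 0.81, adjusted p = 0.132, edgeR). The whole list summed to 753 to 961 CPM in Lgmn KO libraries and 619 to 850 CPM in WT, mostly from Plek. Itga2b, the platelet integrin subunit CD41, had 9 to 10 counts in Lgmn KO libraries and 2 to 9 counts in WT libraries. What part platelets have in the level of Vwf was not tested.

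**Figure D3:**
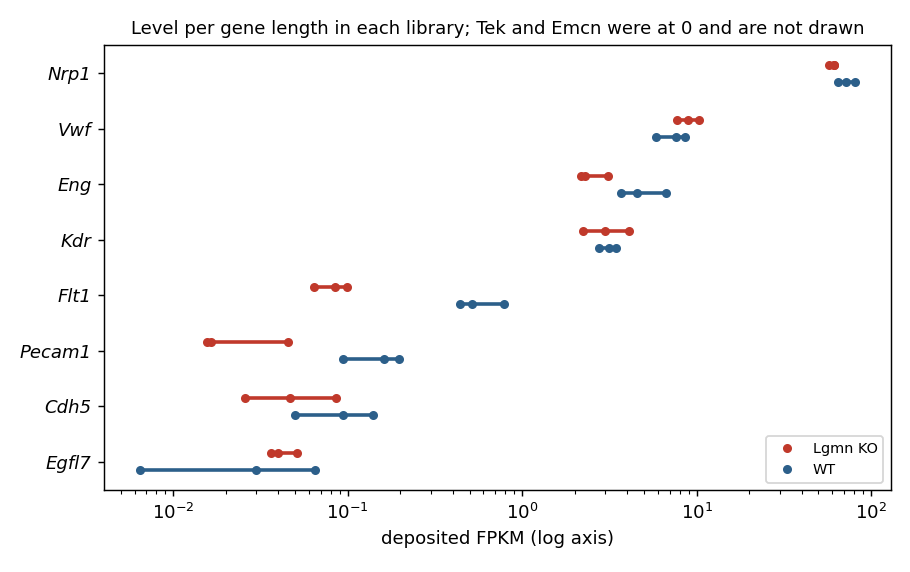
Deposited FPKM (x axis, log scale) of the 8 genes with counts in each library, with a line over the range of the 3 Lgmn KO (red, upper) and 3 WT (blue, lower) libraries. Nrp1 was at 57.2 to 61.4 FPKM in Lgmn KO libraries and 64.9 to 80.7 FPKM in WT, more than any other of these genes, and Pecam1, Cdh5 and Egfl7 were all below 0.2 FPKM.

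Per gene length, the 10 genes covered a wide range of levels in the same libraries. In Lgmn KO the order by mean FPKM was Nrp1 (60.0), Vwf (9.0), Kdr (3.10), Eng (2.52), Flt1 (0.0823), Cdh5 (0.0529), Egfl7 (0.0424) and Pecam1 (0.0259), with Tek and Emcn at 0. In WT it was Nrp1 (72.5), Vwf (7.36), Eng (4.98), Kdr (3.11), Flt1 (0.581), Pecam1 (0.151), Cdh5 (0.0942) and Egfl7 (0.0337), again with Tek and Emcn at 0. In Lgmn KO the ranges of Kdr and Eng overlapped, as did those of each pair of neighbours from Flt1 down to Pecam1. In WT the overlapping neighbours were Vwf and Eng, Pecam1 and Cdh5, and Cdh5 and Egfl7. With exon lengths from GENCODE M21, an alternative chosen after the data were seen, the WT order stayed the same. In Lgmn KO it put Eng (4.56 CPM per kilobase of exon) above Kdr (3.31), and Egfl7 (0.0912) above Flt1 (0.0878).

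The 4 genes that were lower in each Lgmn KO library did not share 1 order among the WT libraries. Flt1 was highest in WT replicate 1, whereas Pecam1, Eng and Nrp1 were all highest in WT replicate 2, and lowest among WT libraries in replicate 1. Summed over all 10 genes the level was 534, 620 and 604 CPM in Lgmn KO replicates 1, 2 and 4, against 611, 680 and 655 CPM in WT replicates 1, 2 and 3. The sum is mostly Nrp1 and Vwf, and its groups overlapped. In the authors' deposited table the log2 fold changes are -2.54 for Pecam1, -0.98 for Eng, -0.27 for Nrp1 and 0.29 for Vwf. Over the 6 libraries, the Pearson correlation of log2 CPM was 0.97 between Eng and Pecam1, 0.95 between Eng and Nrp1 and 0.82 between Flt1 and Pecam1. Flt1 and Nrp1 correlated at 0.66. These values describe 6 libraries that share the genotype difference and the scaling. The correlation of Vwf with each of Flt1, Pecam1, Eng and Nrp1 was negative, from -0.59 to -0.76.

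Beyond the 10 genes, most endothelial transcripts were scarce. In a list of 40 other endothelial markers, all were found in the table, 4 had no count (Erg, Plvap, Mmrn1 and Lyve1) and 12 were tested. None of the 12 was called by edgeR's quasi-likelihood test (DESeq2 called 2, and 6 were below an unadjusted p of 0.05), and their median log2 fold change was 0.01, where that of all tested genes was 0.00. Cldn5, the claudin of endothelial tight junctions, had 1 to 4 counts in Lgmn KO libraries and 1 to 3 in WT libraries. Most of the summed level of the list came from Cd36 and Fabp4, lipid-handling genes that macrophages also express. Cd36 was at 1893 ± 310 CPM in Lgmn KO libraries and 1779 ± 122 CPM in WT, and Fabp4 at 654 ± 33.4 CPM in Lgmn KO libraries and 529 ± 62.5 CPM in WT libraries (n = 3 each, SD). Ly6c1, a surface protein of endothelial cells that some leukocytes also carry, passed the filter only through the WT libraries. It had 4, 0 and 0 counts in Lgmn KO libraries and 23, 45 and 37 in WT (adjusted p = 0.0575, edgeR quasi-likelihood test). Icam2 was at 3.15 ± 0.784 CPM in Lgmn KO libraries and 5.32 ± 0.364 CPM in WT libraries (n = 3 each, SD; adjusted p = 0.143, edgeR), and Tspan7 at 16.0 ± 1.41 CPM in Lgmn KO libraries and 10.3 ± 1.98 CPM in WT (adjusted p = 0.109, edgeR). Erg and Etv2, transcription factors that help set endothelial identity, were at 0.

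Of 22 transcription factors with roles in endothelium, 15 were tested, and 4 of these had an unadjusted p below 0.05. By the edgeR quasi-likelihood test 1 was called higher, where 0.311% of all tested genes were. Epas1, which encodes the hypoxia-inducible factor HIF-2alpha, was at 61.3, 84.4 and 65.0 CPM in Lgmn KO libraries and 27.7, 28.2 and 36.0 CPM in WT. Every Lgmn KO library was above every WT library, with a log2 fold change of 1.20 and a standard error of 0.15 (adjusted p = 0.0277, edgeR quasi-likelihood test). In fits without 1 library the adjusted p of Epas1 was below 0.05 only when WT replicate 1 was left out, and reached 0.11 without Lgmn KO replicate 2. Ets1 was at 2.28 ± 0.166 CPM in Lgmn KO libraries and 5.59 ± 1.46 CPM in WT (log2 fold change -1.29, adjusted p = 0.0575), and Elk3 at 39.1 ± 2.63 CPM in Lgmn KO libraries and 51.1 ± 1.50 CPM in WT (log2 fold change -0.39, adjusted p = 0.0727; SD, n = 3 each, edgeR quasi-likelihood test). Hif1a, the gene of the related factor HIF-1alpha, had a fitted difference of -0.09 on the log2 scale (adjusted p = 0.757, edgeR), and Fli1, another ETS factor, of -0.20 (adjusted p = 0.273, edgeR). The median of this list was -0.20, with DESeq2 calling 3 of its members, where it called 6.41% of all genes.

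**Figure D4:**
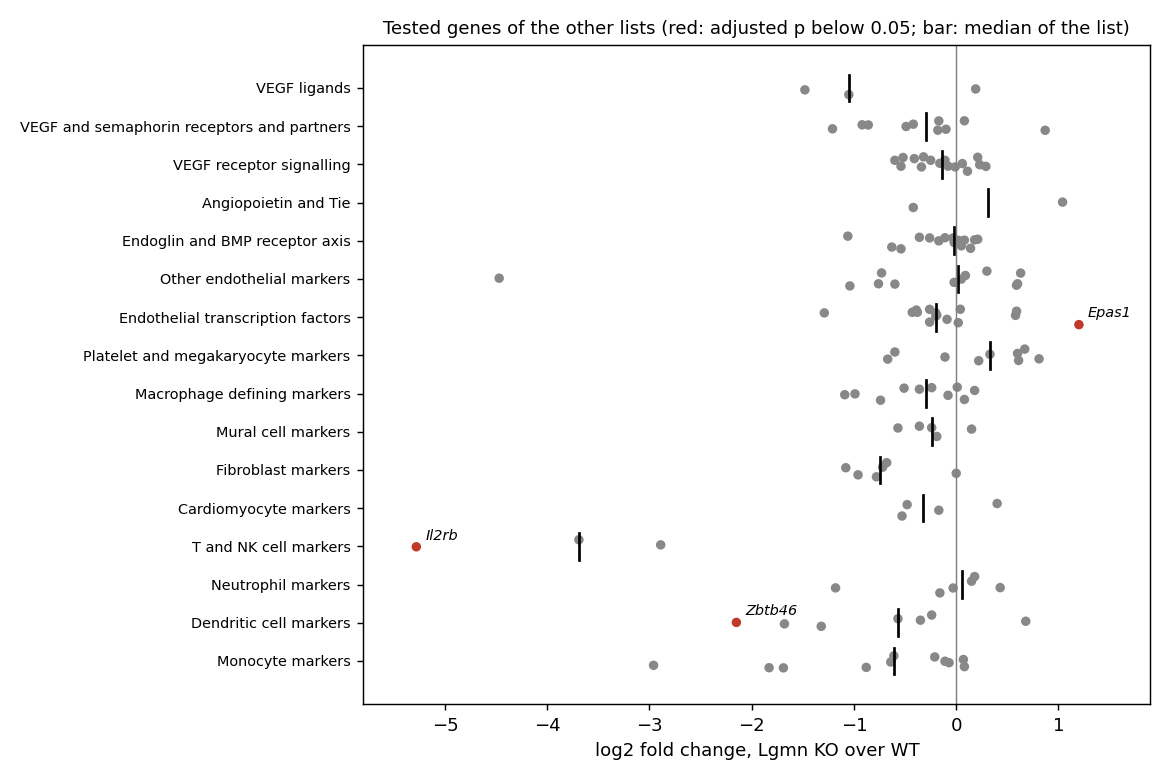
Log2 fold change, Lgmn KO over WT, (x axis) for each tested gene of the 16 other lists (rows), with the list's median as a bar and genes with an adjusted p below 0.05 in red. The called genes are Epas1 at 1.20, Zbtb46 at -2.15 and Il2rb at -5.28. Zbtb46 and Il2rb passed the filter on low counts only through the WT libraries.

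The ligands and partners of these receptors were then read. Of 5 VEGF ligand genes 3 were tested and 0 called by edgeR's quasi-likelihood test (DESeq2 called 2, and 2 were below an unadjusted p of 0.05), with a median of -1.05. Vegfa, the ligand of both Flt1 and Kdr, was at 13.3, 21.9 and 17.5 CPM in Lgmn KO libraries and 23.9, 46.8 and 38.6 CPM in WT. All Lgmn KO libraries were below all WT libraries, and WT replicate 2 was the highest (log2 fold change -1.05, standard error 0.27, adjusted p = 0.107, edgeR). Vegfb, which binds Flt1 and not Kdr, was at 32.3 ± 0.862 CPM in Lgmn KO libraries and 28.3 ± 4.06 CPM in WT libraries (n = 3 each, SD; adjusted p = 0.439, edgeR quasi-likelihood test). Vegfc differed by -1.48 on the log2 scale (adjusted p = 0.14, edgeR). Pgf, which encodes placental growth factor, another ligand of Flt1, had 3, 11 and 5 counts in Lgmn KO libraries and 3, 7 and 4 in WT.

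Among 14 other receptors of VEGF and semaphorins and their partners, 10 were tested, 0 were called by edgeR's quasi-likelihood test (DESeq2 called 2, and 3 were below an unadjusted p of 0.05) and the median was -0.30. Plxna1, a semaphorin receptor that works with neuropilins, was at 1728 ± 43.9 CPM in Lgmn KO libraries and 1633 ± 266 CPM in WT, and Nrp2 at 255 ± 12.0 CPM in Lgmn KO libraries and 287 ± 14.3 CPM in WT libraries (n = 3 each, SD). The log2 fold changes of 2 further plexins were 0.87 for Plxna2 (adjusted p = 0.0963) and -1.21 for Plxna4 (adjusted p = 0.118; edgeR quasi-likelihood test). Of 18 genes of VEGF receptor signalling, 16 were tested and 0 called (6 with an unadjusted p under 0.05, 0 by DESeq2), with a median of -0.13. The adaptor gene Nck1 had the smallest p of these, at a log2 fold change of 0.29 (adjusted p = 0.13, edgeR). Akt1, a kinase downstream of Kdr, was at 376 ± 4.92 CPM in Lgmn KO libraries and 350 ± 21.5 CPM in WT, and Ptpn6, the phosphatase SHP-1, at 230 ± 17.2 CPM in Lgmn KO libraries and 305 ± 57.2 CPM in WT libraries (n = 3 each, SD).

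In the angiopoietin list, 2 of 6 genes were tested and 0 called by the edgeR quasi-likelihood test (1 with an unadjusted p under 0.05, 1 by DESeq2), with a median of 0.31. Angpt2, a ligand of Tek, was at 3.11, 4.60 and 4.10 CPM in Lgmn KO libraries and 1.85, 2.04 and 1.84 CPM in WT. Its groups did not overlap (log2 fold change 1.04, standard error 0.22, adjusted p = 0.0769, edgeR). For the endoglin axis, 17 of 20 genes were tested and 0 called (3 with an unadjusted p under 0.05, 2 by DESeq2), with a median of -0.02. The ligand genes Gdf2 and Bmp10 had no count. Tgfb1, another ligand gene of this family, was at 299 ± 14.0 CPM in Lgmn KO libraries and 294 ± 4.10 CPM in WT libraries (n = 3 each, SD). The log2 fold changes were -0.63 for Smad6, an inhibitor of BMP signals (adjusted p = 0.113), -1.06 for Id1, a target of BMP signals (adjusted p = 0.166), and -0.54 for Id3, another such target (adjusted p = 0.193; edgeR quasi-likelihood test).

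**Figure D5:**
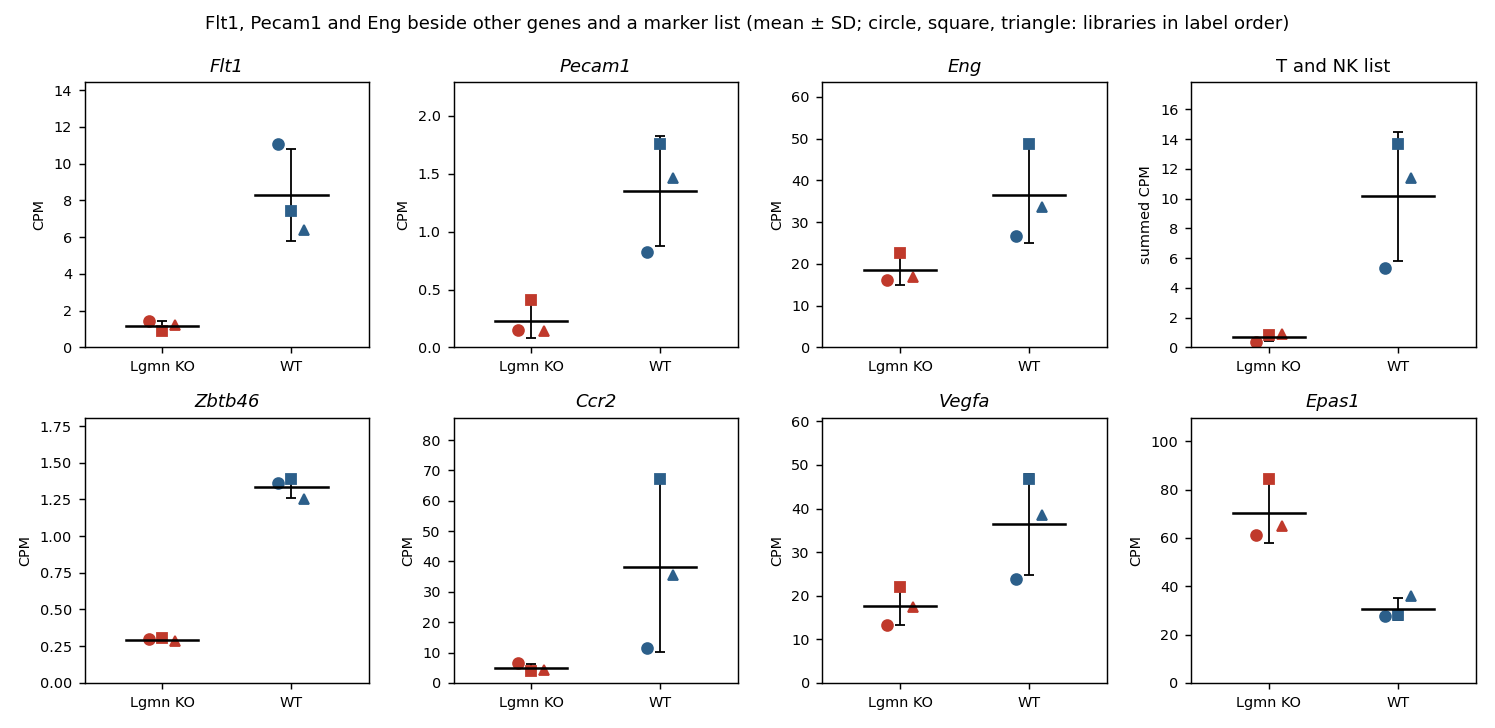
CPM (y axis, from 0) of Flt1, Pecam1 and Eng beside the summed CPM of the T and NK cell list and the CPM of Zbtb46, Ccr2, Vegfa and Epas1, in Lgmn KO (red, left) and WT (blue, right) libraries, with means and SD. Flt1 was highest in WT replicate 1 (11.1 CPM), where the T and NK cell list, Ccr2 and Vegfa had their lowest WT values (5.35, 11.4 and 23.9 CPM).

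Markers of other cell types were read beside these genes. By the edgeR quasi-likelihood test 0.789% of all tested genes were called. In the T and NK cell and dendritic cell lists 1 gene each was. In the monocyte, fibroblast, neutrophil, mural cell and cardiomyocyte lists 0 were. Of the 3 tested T and NK cell genes 3 had an unadjusted p below 0.05 by edgeR, and DESeq2 called 3. Of the 7 tested dendritic cell genes 4 had one, and DESeq2 called 2. The 12 T and NK cell markers summed to 0.395 to 0.896 CPM in Lgmn KO libraries and 5.35 to 13.7 CPM in WT; 11 of them had counts, and Ncr1 was at 0. The sum was highest in WT replicate 2, where Gzmb, a protease gene of cytotoxic cells, was at 2.73 CPM, against 0.292 CPM in WT replicate 3. The tested genes Cd3g, Lck and Il2rb were each highest in WT replicate 3. Of 3 tested genes, Il2rb, a cytokine receptor subunit of T and NK cells, was called lower, with 1, 0 and 1 counts in Lgmn KO libraries and 19, 38 and 43 in WT (log2 fold change -5.28, standard error 0.66, adjusted p = 0.0267, edgeR quasi-likelihood test), and the median of these 3 was -3.69. Il2rb and Cd3g passed the filter only through the WT libraries. With every Lgmn KO library under its cutoff, they could enter the test only by being higher in WT. The calls, the unadjusted p and the median of this list are therefore not read as support for a difference. The T cell genes Cd3g and Lck, the other tested members, had log2 fold changes of -3.69 (adjusted p = 0.0555) and -2.89 (adjusted p = 0.0575; edgeR quasi-likelihood test). In the dendritic cell list 7 of 10 genes were tested (median -0.57) and Zbtb46, a transcription factor of classical dendritic cells that endothelial cells also express, was called lower. It too passed the filter only through the WT libraries, so it could enter the test only by being higher in WT. Its call and its part in the list's counts and median are likewise not read as support for a difference. Its level was 0.296, 0.307 and 0.283 CPM in Lgmn KO libraries and 1.36, 1.39 and 1.25 CPM in WT (log2 fold change -2.15, standard error 0.33, adjusted p = 0.041, edgeR quasi-likelihood test). The list summed to 255 to 346 CPM in Lgmn KO libraries and 351 to 416 CPM in WT, mostly from Itgax, with Siglech at 0. Il2rb and Zbtb46 each kept an adjusted p below 0.05 in 1 of the 6 fits without 1 library, the fit without WT replicate 1. Both were above it with the replicate number as a block (adjusted p = 0.12 and 0.236, edgeR). Lgmn KO replicate 4 and WT replicate 3 share no number with the other genotype, so that fit draws no genotype difference from them.

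The 12 monocyte markers summed to 596 to 699 CPM in Lgmn KO libraries and 577 to 835 CPM in WT, all with counts and mostly from Chil3 and F13a1. Of 11 tested genes 0 were called by the edgeR quasi-likelihood test (5 with an unadjusted p under 0.05, 3 by DESeq2), with a median of -0.61. Ccr2, the receptor that recruits monocytes, was at 6.42, 3.88 and 4.34 CPM in Lgmn KO libraries and 11.4, 67.2 and 35.6 CPM in WT (adjusted p = 0.0727, edgeR). Cx3cr1, a chemokine receptor of patrolling monocytes and resident macrophages, was at 1.25 ± 0.436 CPM in Lgmn KO libraries and 4.45 ± 1.39 CPM in WT libraries (n = 3 each, SD; adjusted p = 0.0575, edgeR). Fibroblast markers summed to 369 to 460 CPM in Lgmn KO libraries and 458 to 528 CPM in WT (6 of 10 tested, 0 called by edgeR, 4 with an unadjusted p under 0.05 and 1 by DESeq2, median -0.75). Most of that sum was Gsn, the gene of gelsolin, at 338 ± 17.8 CPM in Lgmn KO libraries and 338 ± 11.1 CPM in WT libraries (n = 3 each, SD). The other 5 tested members had negative log2 fold changes, of -1.08 for Dcn, -0.96 for Pdgfra and -0.78 for Col1a1. Those of Col1a2 and Col3a1 were -0.72 and -0.68. By edgeR none of the 5 was called, while DESeq2 called Dcn. Neutrophil markers summed to 272 to 328 CPM in Lgmn KO libraries and 311 to 455 CPM in WT (6 of 10 tested, 0 called by edgeR, 1 with an unadjusted p under 0.05 and 1 by DESeq2, median 0.06). Mural cells, which wrap small vessels, gave 15.2 to 32.6 CPM in Lgmn KO libraries and 18.4 to 39.2 CPM in WT (5 of 10 tested, median -0.24), and cardiomyocytes 3.65 to 5.32 CPM in Lgmn KO libraries and 4.17 to 5.46 CPM in WT (4 of 10 tested, median -0.33). In these last 2 lists 0 genes were called by edgeR, 0 by DESeq2 and 0 had an unadjusted p under 0.05. All 10 macrophage markers were tested with 0 called (6 with an unadjusted p under 0.05, where 17.5% of all tested genes had one, 2 by DESeq2, median -0.30). They summed to 20449 to 23765 CPM in Lgmn KO libraries and 21842 to 23507 CPM in WT, mostly from Lyz2, the gene of lysozyme. What part the other cell types have in the levels of Flt1, Pecam1 and Eng was not tested.

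The 5 genes whose log2 CPM followed Flt1 most closely over the 6 libraries, among 9130 genes with a mean of at least 5 CPM, were Pabpc1, Pip4k2b, Ruvbl1, Tti2 and Faf2. Their Pearson correlation with Flt1 lay between 0.985 and 0.993. Each was lower in every Lgmn KO library than in any WT library, by a small difference, so these correlations include the genotype difference. With values centred within each genotype they lay between 0.64 (Tti2) and 0.97 (Faf2). Pabpc1 was at 427, 405 and 419 CPM in Lgmn KO libraries and 527, 527 and 508 CPM in WT, a log2 fold change of -0.32 (adjusted p = 0.06, edgeR quasi-likelihood test). The same measure for Kdr named Aasdhppt, Nup153, Irak3, Pdlim5 and Rreb1, with correlations of 0.95 to 0.979 and log2 fold changes of -0.03 to 0.01. These are descriptions over 6 libraries chosen from many genes.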

How the data were processed

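Messenger RNA of sorted cardiac macrophages was measured in 3 Lgmn KO and 3 WT libraries, grouped by title. Per the submitters' processing notes HISAT2, TopHat2 2.0.9 and TopHat were used, with the human build hg38 named. The data are from mouse, and GENCODE M21 (GRCm38) holds 98.8% of the table's gene IDs. Not given in the sources used here are how reads were counted, with strand or without, and which test the authors ran. Per the file headers, the table holds a raw count and an FPKM value per gene and library. It also holds the authors' FPKM means, log2 fold change, p-value and q-value. Of these comparison columns only the log2 fold change is quoted here, and the authors' p-value and q-value were not used.

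Counts were filtered with filterByExpr (minimum count 10, a cutoff of 0.478 CPM in at least 3 libraries), scaled by TMM and tested with edgeR 4.0.16 (quasi-likelihood, R 4.3.3), Lgmn KO against WT without covariates, with Benjamini-Hochberg adjustment over 12546 genes. The standard error comes from the F statistic. FPKM served only to compare levels between genes. The procedure was tested on simulated data. Alternatives were DESeq2 1.42.0, no filter, library totals, RLE factors, a replicate block and leaving out each library. Correlations used log2 CPM with a prior count of 2. The 10 genes and 16 further lists (textbook markers and pathway genes) were chosen with earlier results of these data known. The rule for naming genes took all 10, Lgmn, and allowed from each list its called genes, its 3 genes with the lowest p and its 2 most abundant ones, and the genes most like Flt1 and Kdr. Others named for their low counts or roles (such as Tie1, Cldn5, Pgf, Itga2b and Vegfb) were chosen after their values were seen. Promoters are from RefSeq (GRCm38.p6), which matched 7 of the 10 genes. Between libraries of one genotype the chi-square of the counts was 14.0 to 42.7 times its degrees of freedom, so each was counted as a library of its own.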

Additional observations from a re-analysis of the deposited data

How the results depend on the processing

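The log2 fold change of Flt1 was -2.79, between -2.95 and -2.52 without 1 library, and between -2.98 (replicate block) and -2.78 in the other fits. Over all genes 99 passed, with 318 without the filter on low counts, 165 with library totals alone, 39 with the replicate block and 804 with DESeq2, and 6 to 639 without 1 library (6 without Lgmn KO replicate 2, 639 without WT replicate 1). Among the 135 tested genes of the 16 other lists 3 passed, or 2.22%, where 0.789% of all tested genes did. Of these 3, Il2rb and Zbtb46 passed the filter only through the WT libraries, so nothing is read from this share. The count was 15 without the filter, 8 with library totals alone and 26 with DESeq2, which called 6.41% of all genes. It was 0 to 29 without 1 library (0 without Lgmn KO replicate 1 or 2 or WT replicate 2 or 3, 29 without WT replicate 1). The order of the 10 genes in WT was the same with the lowest or highest library in place of the mean. The cause of these shifts was not tested. Replicate numbers 1 and 2 are shared by the genotypes. Deviations from the genotype means correlated at 0.12 and 0.08 within these 2 pairs, too few to treat the numbers as a pairing. In the block fit Lgmn KO replicate 4 and WT replicate 3 each stood alone in a block. Its genotype differences and calls therefore rest on the 2 shared pairs only. With the block, 2 list genes passed, Epas1 and Ly6c2. Counts under about 40 limit Pecam1, Cdh5 and Egfl7, and also the Lgmn KO level of Flt1 (29, 18 and 26 counts in replicates 1, 2 and 4).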
